A study of Bos taurus with 2 samples.

Results

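The myosin heavy and light chains that distinguish slow, fast and developing muscle fibers were compared in fetal *longissimus thoracis* (LT) muscle after a low and a high maternal diet. They comprise 10 genes, *MYH1*, *MYH2*, *MYH3*, *MYH7*, *MYH8*, *MYL1*, *MYL2*, *MYL3*, *MYL4* and *MYL11*, of the 19554 genes for which a difference could be computed. The members were found by the RefSeq accession given with each probe, and all 10 had probes, 33 in total. Pregnant Japanese Black cows were fed throughout gestation and before it, either at 60% of the nutritional requirement (the low-nutrition group, LN) or at 120% (the high-nutrition group, HN), with male-sorted semen of a single sire in both groups. Fetal LT muscle was taken at 8.5 months, on day 260 ± 8.3 of gestation. Total RNA of 4 fetuses was pooled per group, and a single one-color Agilent bovine array was used for each pool, with both arrays on the same slide. The HN pool came from the fetuses with the highest body weight (BW) of their group and the LN pool from those with the lowest, so diet and selection by BW cannot be told apart.

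With 1 array in each group, no statistical test and no check on replicates could be made, and variation among fetuses was not measured. Differences are given as log2 LN/HN, which is negative where the signal was lower in the LN pool. In place of a test, genes were counted whose signal in one pool was more than 25% above that in the other, which is 0.32 on the log2 scale and the smaller of the fold limits used in the study. Pooled RNA of whole muscle cannot tell fewer fibers of a type from less RNA of that type in each fiber.

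Myosin is the motor protein of the thick filament. Each molecule joins a pair of heavy chains, which hydrolyze ATP and pull on actin, with essential and regulatory light chains that wrap around the neck of each head. Fibers are named for the heavy chain they contain, because it sets much of the speed of contraction. Slow fibers use the heavy chain encoded by *MYH7* and fast fibers use those of *MYH2* and *MYH1*. Fetal muscle also holds an embryonic and a perinatal heavy chain, encoded by *MYH3* and *MYH8*, which mostly give way to the adult chains around birth and afterwards. In the cattle gene table, *MYH8*, *MYH4*, *MYH1*, *MYH2* and *MYH3* follow one another on 1 chromosome, while *MYH7* lies beside *MYH6* on another.

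*MYL4*, *MYH1* and *MYH8* were the members past the 25% limit. *MYL4* (NM_001075149), the embryonic and atrial essential light chain, was 1.96-fold lower in the LN pool, and *MYH1* (NM_174117), the heavy chain of the fastest fibers of cattle limb and trunk muscle, was 1.41-fold lower. *MYH8* (NM_001206174), the perinatal heavy chain, was 1.27-fold higher in the LN pool. Over all genes 9.11% were past the 25% limit on the lower side in the LN pool and 8.85% on the higher side, against 2 and 1 of the 10 members. The shares over all genes depended on the processing. They were 1.96% and 1.62% after normexp background correction and 13.4% and 12.2% with no filter on dim probes. The members past the limit were 2 lower and 1 higher in both settings. Leaving out the filter could not change the member values, since no member spot was dim on either array. No member was past 2-fold, as 0.997% of all genes were. The median log2 LN/HN of the members was -0.02 and that of all genes -0.0033.

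All 33 member spots were free of outlier flags, none was saturated, and each exceeded the background clearly on both arrays. For scale, probes printed in several spots had an SD of log2 LN/HN between spots of 0.085 (42 probes), and different probes of 1 gene had a median SD of 0.098 (6896 genes). These describe technical spread within the arrays and not the spread between fetuses. The error model of the scanner software gave an error of 0.20 for log2 LN/HN of each member probe, and 8 of the 33 probes differed by more than 2 times that error, against 7.48% of all probes printed in 1 spot. These 8 probes belong to 4 genes, *MYH1*, *MYL4*, *MYH7* and *MYH8*. Over the whole arrays, 74.5% of the spots were well above background for HN and 70.9% for LN, with median signals of 49.1 and 48.4.

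**Figure D1:**
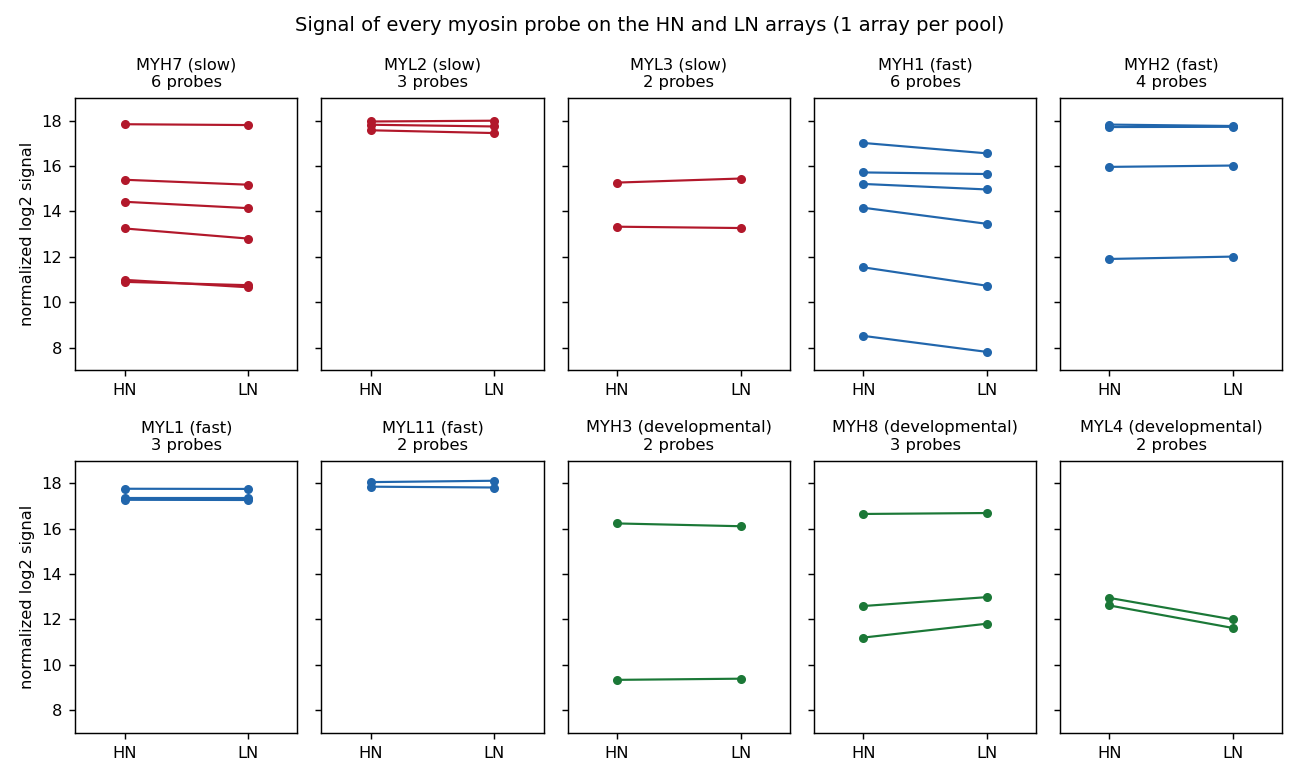
Normalized log2 signal of every myosin probe (y axis) on the HN and LN arrays (x axis), 1 panel per gene and 1 line per probe, with slow myosins in red, fast ones in blue and developmental ones in green. Both lines of *MYL4* and all 6 lines of *MYH1* descend from HN to LN, while the 3 lines of *MYL1* are flat.

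Among the developmental chains, *MYL4* had the largest difference of the 10 members. Before normalization, the signal of one probe was 7813 for HN and 4152 for LN, and that of the other was 6196 and 3204. On the normalized log2 scale the mean of both probes was 12.78 for HN and 11.81 for LN. The log2 LN/HN of the probes was -0.95 and -0.99, so they differed by 0.04 and the gene had a value of -0.97 ± 0.03 (SD between probes, n = 2 probes on the same 2 arrays). *MYL4* ranked 63 from the lowest of the 19554 genes. Its value lay between -0.97 and -0.89 over all settings of processing tried.

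*MYH8* was the only member with a higher value past the limit, and its probes disagreed. The signals were 103763 in HN and 105248 in LN for one probe, which correspond to 16.65 and 16.69 on the normalized log2 scale and a log2 LN/HN of 0.04. The other probes went from 6087 to 8148 and from 2318 to 3661, with log2 LN/HN of 0.39 and 0.61. The mean was 0.35 ± 0.29 (SD, n = 3 probes), and it was 0.04 when the gene was represented by its probe of highest signal. The call of *MYH8* therefore depends on which probes represent it.

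*MYH3*, the embryonic heavy chain, had probe values of -0.12 and 0.05 and a mean of -0.04. The signals were 77379 and 69666 for one probe and 638 and 680 for the other, in HN and LN respectively. The perinatal heavy chain, the embryonic heavy chain and the embryonic light chain thus gave values of different sign and size. The mean change of the developmental group minus that of the fast group was -0.10. It was -0.23 with the probe of highest signal of each gene, -0.06 under 75th percentile scaling or without normalization, and 0.27 when *MYL4* was left out, so this difference took its sign from *MYL4*.

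Among the fast chains, *MYH1* stood apart from the other members. All 6 probes were lower in the LN pool and 4 of them were past the 25% limit. The 4 probes went from 133073 to 96104, from 18218 to 11239, from 2935 to 1715 and from 362 to 227 in signal, with log2 LN/HN of -0.46, -0.71, -0.81 and -0.71. The remaining probes went from 54504 to 51068 and from 38120 to 31516, with log2 LN/HN of -0.07 and -0.24. The gene had a mean of -0.50 ± 0.30 (SD, n = 6 probes) and ranked 699 from the lowest. The direction was shared by all probes, and the size ranged over 0.74 on the log2 scale. Its value lay between -0.58 and -0.46 over the settings that included it.

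The heavy chains of striated muscle are close in sequence. The sequences of the probes were not used here, so which of these transcripts each probe can bind was not tested. This applies to the unequal probes of *MYH1* and *MYH8*, which lie in the same cluster as *MYH2*.

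*MYH2*, the heavy chain of the fast oxidative fibers, had a value of 0.03 with probes between -0.06 and 0.10. Its probes went from 234842 to 219953, from 217478 to 213564, from 63839 to 65837 and from 3774 to 4180 in signal. No probe was past the 25% limit, and the sign of the gene changed under 75th percentile scaling (-0.02, above the median of all genes of -0.04 in that setting), with its probe of highest signal (-0.06) and in the authors' normalized values (-0.03), which hold 2 of its 4 probes.

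The fast light chains were nearly equal in both pools. *MYL1*, the fast essential light chain, had probe values between -0.0083 and 0.00 (n = 3 probes), with signals from 224636 to 217887, from 171327 to 168191 and from 160917 to 155764. *MYL11*, the fast regulatory light chain, had values of -0.04 and 0.06 and a mean of 0.01. Its signals were 273458 and 273909 for one probe and 240783 and 229261 for the other. The sign of the *MYL11* mean changed with the scaling, to -0.07 under 75th percentile scaling and -0.03 without normalization, where the median of all genes was -0.04 and -0.0075. Quantile normalization gives probes of equal rank the same value on both arrays, so a difference of 0.00 stands for equal rank. Without normalization the *MYL1* probes gave -0.04, -0.03 and -0.05.

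**Figure D2:**
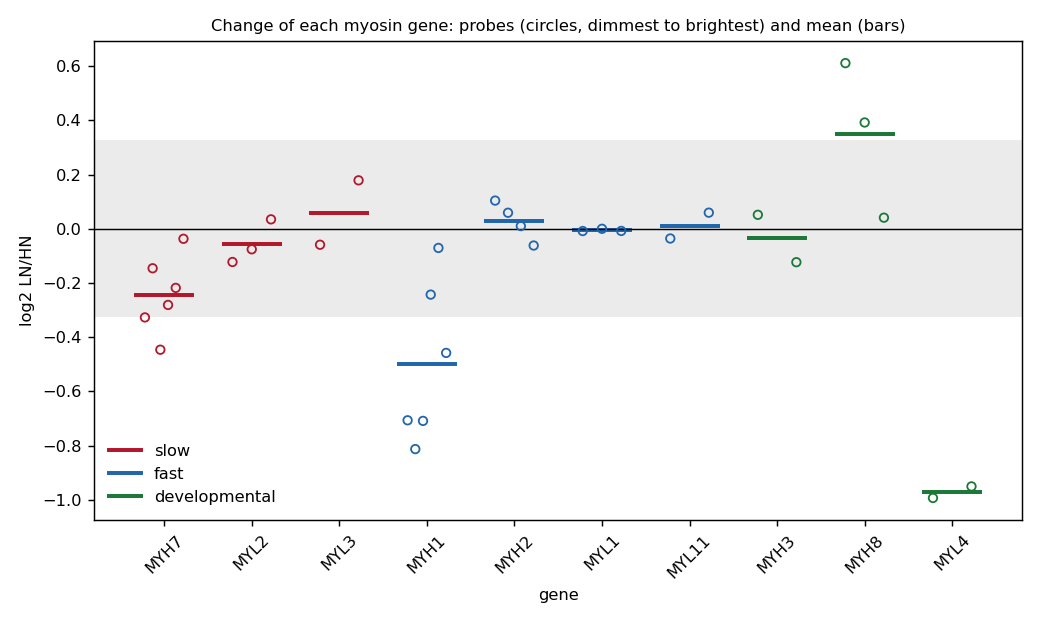
Log2 LN/HN (y axis) of each probe (circles, placed from the lowest to the highest signal within a gene) and the mean of each gene (bars), for slow (red), fast (blue) and developmental (green) myosins, with the range within the 25% limit in grey. The means of *MYH1* at -0.50 and *MYL4* at -0.97 lie below the grey range and that of *MYH8* at 0.35 just above it, with the probes of *MYH1* and *MYH8* spread and those of *MYL4* close together.

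Among the slow chains, no gene was past the 25% limit. *MYH7*, the slow heavy chain that is also the main heavy chain of the adult ventricle, had a value of -0.24 ± 0.14 (SD, n = 6 probes), which is 1.18-fold lower in the LN pool. All 6 of its probes were lower and 2 were past the limit. On the normalized log2 scale the probes went from 17.84 to 17.80, from 15.39 to 15.18, from 14.42 to 14.14, from 13.25 to 12.80, from 10.89 to 10.75 and from 10.98 to 10.66. *MYH7* had a shared direction as *MYH1* did, at a smaller size, and ranked 2745 from the lowest. It was -0.04 when represented by its probe of highest signal.

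*MYL2*, the slow and ventricular regulatory light chain, had probe values of 0.03, -0.08 and -0.12 and a mean of -0.05. Its signals went from 260127 to 258424, from 232852 to 216649 and from 196604 to 177213. *MYL3*, the slow and ventricular essential light chain, had values of 0.18 and -0.06 and a mean of 0.06, with signals from 39829 to 44471 and from 10157 to 9963. The mean change of the 3 slow genes was 0.04 above that of the 4 fast genes. The fast mean includes *MYH1* at -0.50, while *MYH2*, *MYL1* and *MYL11* had 0.03, -0.0054 and 0.01. The sign of this difference therefore came from *MYH1*. This difference was 0.18 when each gene was represented by its probe of highest signal.

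By chain, 14 of the 21 heavy-chain probes and 8 of the 12 light-chain probes were lower in the LN pool, where 48.8% of all 30639 probes measured on both arrays were lower. The probes past the 25% limit on the lower side were 6 of the heavy chains, from *MYH1* and *MYH7*, and 2 of the light chains, both from *MYL4*, against 8.31% of all probes. On the higher side they were 2 probes of *MYH8*, against 8.59% of all probes. By fiber type, 9 of 11 slow, 10 of 15 fast and 3 of 7 developmental probes were lower. Probes of 1 gene share a transcript and a pool of RNA and are not replicates.

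Many myosin probes were among the brightest on the arrays, where differences were small for all genes. Of the 388 probes with a mean log2 signal of 16 or more, 1.55% were past the 25% limit in either direction, against 17.1% of the 30251 probes below. At 17 or more it was 0 of 168 probes. Of the 33 member probes, 14 lay at 16 or more and 1 of them was past the 25% limit, while 19 lay below and 9 were past it. All probes of *MYL1*, *MYL2* and *MYL11* lay at 17 or more. Whether the arrays understate differences at these signals was not tested, so the near-zero values of these light chains describe signals near the top of the range. Within a gene, the probe of highest signal had the difference nearest 0 in 4 of the 10 genes (*MYH7*, *MYH8*, *MYL2* and *MYL4*), the one farthest from 0 in 3 (*MYH3*, *MYL3* and *MYL11*) and neither in the other 3.

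**Figure D3:**
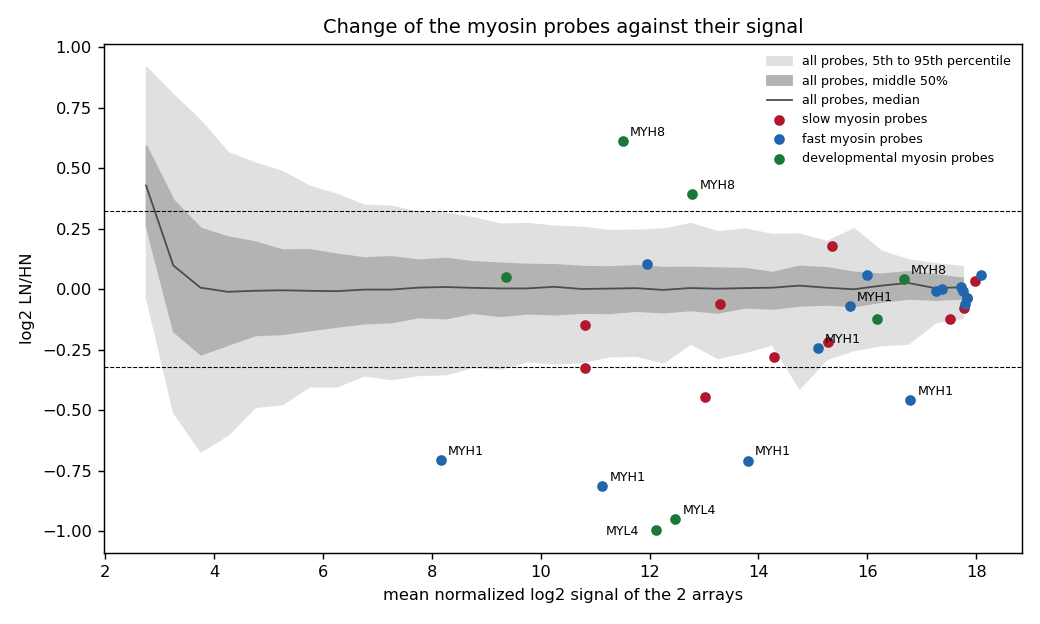
Log2 LN/HN of the myosin probes (y axis, points colored by fiber type) against their mean normalized log2 signal (x axis), over the median, middle 50% and 5th to 95th percentile of all probes at that signal, with dashed lines at the 25% limit. The range of all probes narrows toward high signals, where 11 member probes lie at 17 or more, and both *MYL4* probes and 4 of the 6 *MYH1* probes lie below the lower dashed line.

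The label of the tissue was checked against marker genes. Of 8 skeletal muscle fiber markers, 6 were measured, among them *ACTA1*, the skeletal actin, and *CKM*, the muscle creatine kinase. All 6 were lower in the LN pool, none past the 25% limit, with a median of -0.18, and their summed signal in LN was 0.923 of that in HN. Of the heart-specific markers, *NPPA*, *NPPB* and *NKX2-5* were not well above background on either array. The cardiac troponins *TNNI3* and *TNNT2* and the calcium pump regulator *SLN* were measured, with normalized log2 signals in HN of 8.51, 6.15 and 17.20. All 3 were lower in the LN pool and none was past the limit, with a median of -0.14. The other 2 markers of the list had no matched probe. The heart also expresses *MYL4*, *MYH7*, *MYL2* and *MYL3*, and a cardiac source of their signal was not tested. Among other cell types, fibroblast markers were higher in the LN pool in 6 of 6 genes, 4 of them past the 25% limit, with a median of 0.34. Smooth muscle markers were lower in 5 of 6, 3 of them past the limit, with a median of -0.31, and endothelial markers were lower in 5 of 6, 1 past it, with a median of -0.21. The remaining endothelial gene, *VWF*, had 0.02, a mean that includes 1 probe well above background on 1 array only. Macrophage and leukocyte markers were lower in 5 of 6, 2 past the limit, with a median of -0.26. Adipocyte markers (3 of 5 measured, 1 past the limit on the higher side) had a median of 0.22, with *LEP* not well above background, and erythroid markers (4 of 7 measured, none past the limit) a median of -0.09. The summed signals in HN and LN were 20771 and 25396 for fibroblast, 10981 and 8881 for smooth muscle, 5575 and 4415 for endothelial and 4410 and 3556 for macrophage markers. Such sums follow the brightest genes of a list. *ACTA2*, measured by 1 probe, made up most of the smooth muscle sum, and *CLDN5* most of the endothelial sum. The part of these cell types in the myosin values was not tested.

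The partners of the myosins in each fiber type were compared next. Of 11 fast-fiber partners, 9 were measured, 7 were lower and 1 was higher in the LN pool, 2 were past the 25% limit on the lower side and the median was -0.20. *ACTN3*, the Z-disc actinin of fast fibers, had the lowest value of the list at -0.60, and *CASQ1*, the fast calsequestrin that stores calcium, had -0.34. Troponin T of fast fibers, *TNNT3*, had -0.22, the calcium-binding *PVALB* -0.20, the calcium pump *ATP2A1* -0.20, the tropomyosin *TPM1* -0.20 and the Z-disc protein *MYOZ1* -0.18. *MYOZ3* had 0.06 and the fast troponin C, *TNNC2*, had 0.00. *PVALB* had 1 probe of low signal (log2 5.62 in HN and 5.42 in LN), and probes at 2 to 6 had a median absolute difference of 0.21. *TNNC2* had 1 probe near the top of the range (18.35 on both arrays), where 0.00 stands for equal rank. Over all genes, 50.7% were lower in the LN pool. Among the fast myosins themselves, *MYH2*, *MYL1* and *MYL11* had values within 0.03 of 0.

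Of 11 slow-fiber partners, 9 were measured, 6 were lower and 3 higher, 1 was past the limit on the lower side, and the median was -0.10. *MB*, the oxygen-binding myoglobin, had the lowest value at -0.37. The slow calcium pump *ATP2A2* had -0.17, slow troponin T *TNNT1* -0.12, the tropomyosin *TPM3* -0.12, the myosin-binding protein *MYBPC1* -0.10 and slow troponin C *TNNC1* -0.05. *CASQ2*, the slow and cardiac calsequestrin, had 0.21, *MYOZ2* had 0.19 and *CSRP3* had 0.15. Both partner lists had a median below that of all genes, and that of the skeletal muscle fiber markers, also low, lay between them.

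**Figure D4:**
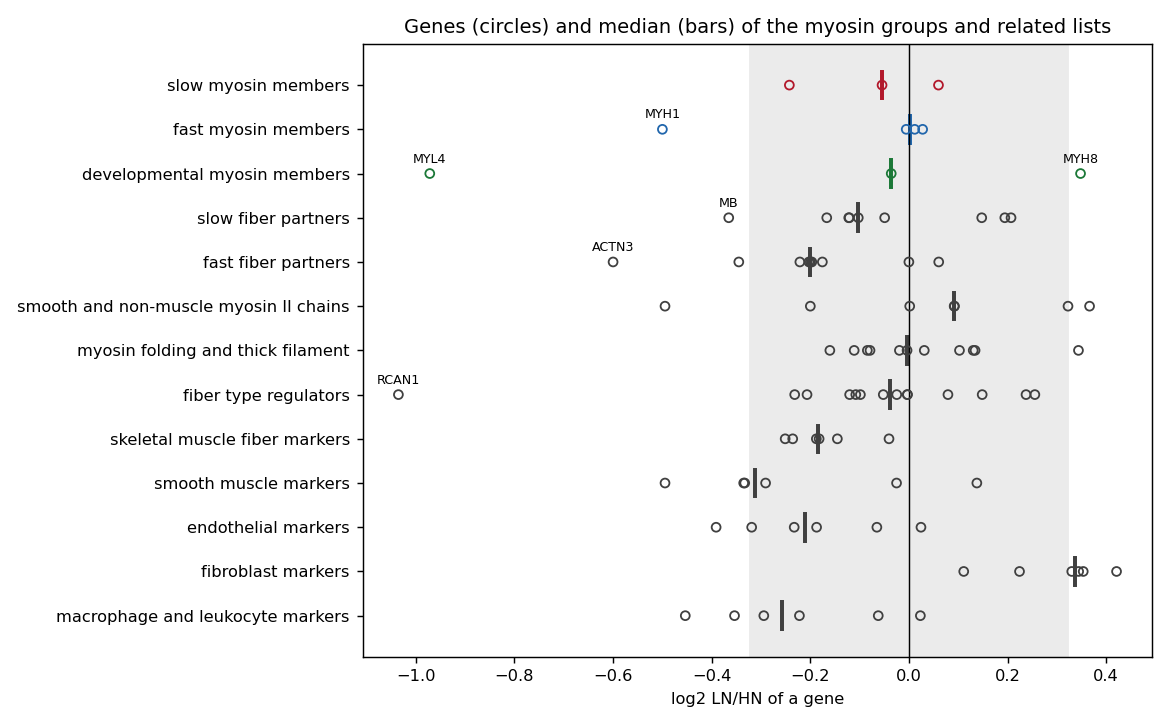
Log2 LN/HN of single genes (circles, x axis) and the median (bars) of the slow, fast and developmental myosins and of related gene lists (y axis), with the range within the 25% limit in grey. *MYL4* at -0.97 and the regulator *RCAN1* at -1.03 lie farthest to the left, fast-fiber partners have a median of -0.20, and all fibroblast markers lie above 0.

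Other myosin chains were less fully covered. Of 10 other striated chains only *MYL6B*, an essential light chain of slow and non-muscle cells, had a matched probe, with -0.09, and *MYH4* and *MYH6*, the neighbors of *MYH1* and *MYH7*, had none. Of 8 smooth muscle and non-muscle chains, 7 were measured, 2 lower and 5 higher, with a median of 0.09. *MYH11*, the smooth muscle heavy chain, had -0.49 and *MYL9*, a regulatory light chain of smooth muscle, had -0.20. Non-muscle chains gave 0.37 for *MYL12B*, 0.32 for *MYH10* and 0.09 for *MYH9*, the first 2 being past the 25% limit. *MYL12B* (1 probe) and *MYH10* had low normalized log2 signals of 6.70 and 5.39 in HN, and the probes of *MYH10* ranged from 0.04 to 0.63. Of all probes measured on both arrays, 13.6% at signals of 6 to 8 and 31.5% at 2 to 6 were past the limit in either direction. *MYH11* had about the same difference as *MYH1* and also stands on the list of smooth muscle markers.

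Genes that fold, anchor or modify myosin had a median of -0.0037 (11 of 18 measured, 6 lower and 5 higher). *SMYD1*, which takes part in the assembly of thick filaments, had 0.13, the phosphatase subunit *PPP1CB* 0.13 and the chaperone *HSP90AA1* 0.10. *TRIM54*, a ubiquitin ligase of the sarcomere, had -0.16, the M-band protein *MYOM2* -0.11 and *MYBPH* -0.08. *MYBPC3*, the cardiac myosin-binding protein C, had a mean of 0.34, the single value of the list past the limit, and is named after its value was seen. This mean includes 1 probe that was not well above background for HN, whose 0.92 is a lower limit, while the probes measured on both arrays gave -0.01 and 0.12, neither past the limit.

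Of 26 regulators of fiber type, 14 were measured, 10 lower and 4 higher, with a median of -0.04. *RCAN1*, an inhibitor of the calcium-dependent phosphatase calcineurin, was the single regulator past the 25% limit, at -1.03, with normalized log2 signals of 10.54 in HN and 9.50 in LN. Calcineurin dephosphorylates NFAT factors, which promote the slow-fiber program, and *RCAN1* is also a target gene of these factors. Of these factors, *NFATC3* had 0.15 and *NFATC1* -0.0028, and the catalytic subunits of calcineurin had -0.11 (*PPP3CA*) and 0.08 (*PPP3CB*), the last 3 being named after their values were seen. The transcriptional cofactor *VGLL2* had -0.23, the deacetylase *HDAC5* -0.21, the cofactor *EYA2* 0.26 and *PPARGC1A*, a coactivator of mitochondrial and slow-fiber genes, 0.24.

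**Figure D5:**
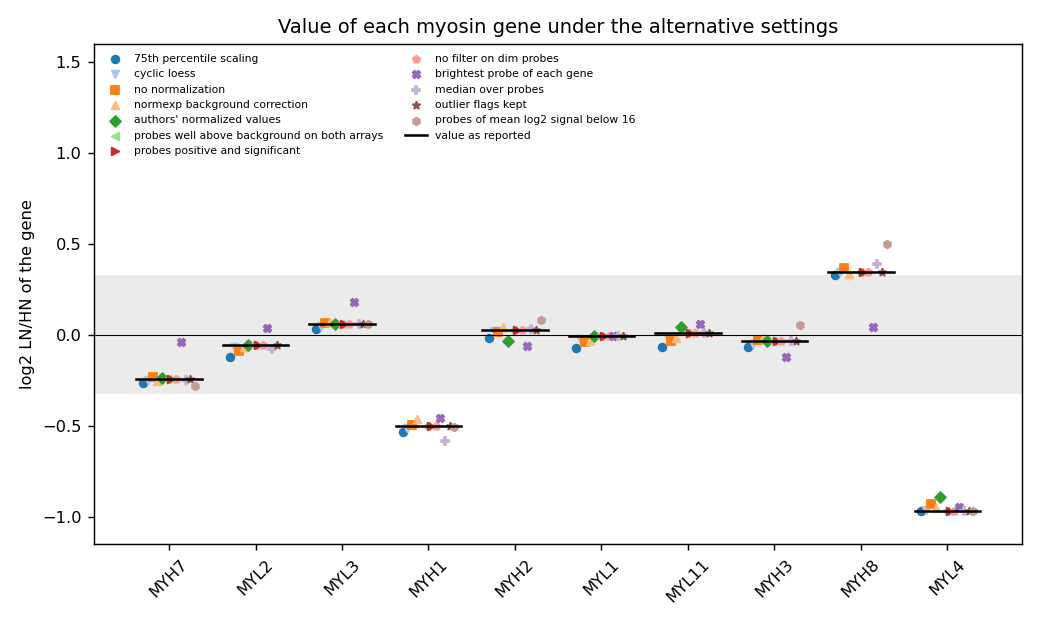
Log2 LN/HN of each myosin gene (y axis) as reported (black bars) and under the alternative settings of normalization, background correction, filter and probe choice (colored symbols), with the range within the 25% limit in grey. *MYL4* and *MYH1* stay below the grey range in every setting that includes them, and *MYH8* falls to 0.04 with its probe of highest signal.

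The calls of *MYL4* and *MYH1* were the same under each scaling of the arrays tried. Under 75th percentile scaling, 30.7% of the calls over all genes were higher in the LN pool, against 49.3% in the values reported here, and without normalization it was 39.3%. The members past the 25% limit were 2 lower and 1 higher under both of these settings too.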

How the data were processed

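Pooled total RNA of LT muscle from 4 fetuses per group was measured on 2 one-color arrays, 1 per group. The intensities deposited by the authors, from Feature Extraction 11.0.1.1, were background-corrected but not normalized between arrays. They also deposited quantile-normalized values (GeneSpring GX), whose range fits log2 values although the table names no scale, and which hold 18 of the 33 member probes and none of *MYH1* or *MYH8*. Here log2 intensities of 43803 non-control spots were quantile normalized with limma 3.58.1 in R 4.3.3, and 13 spots with an outlier flag were removed. Used were the 32775 probes that the software marked as well above background on either array (30639 on both). Where one array was dim, its value was raised to the lowest such signal (log2 2.27 for HN, 2.82 for LN). A gene is the mean over its probes. Quantile normalization forces both arrays to 1 distribution, which removes any overall shift. The number of arrays limits the precision.

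Accessions were named through the ARS-UCD2.0 gene table, used for names and order only, since the arrays were designed on an earlier assembly. Of the genes with a value, 10637 had a symbol. Tables were handled with Python 3.11.15, numpy 2.4.6 and pandas 2.3.3, figures drawn with matplotlib 3.10.9, and the steps tested on simulated data. The members and the 17 gene lists, written by hand, were chosen with earlier results of these data known. Named were all members, all measured fiber partners and other striated chains, and in the other 3 lists the 3 largest values in each direction among genes with every detected probe measured on both arrays. The closing section gives 11 alternative settings, and 2 more chosen after seeing the data. The normexp alternative (offset 50) used median spot signals, as these files give them.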

Additional observations from a re-analysis of the deposited data

How the results depend on the processing

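No paired analysis was possible because each group has 1 array, and no replicate could be left out. Over 11 alternative settings and 2 more chosen after seeing the data (probes of mean log2 signal below 16, and *MYL4* left out), 107 of 115 values of single myosin genes moved by less than the SD between spots of 1 probe (0.085) and 8 moved by more, 6 of them when a gene was represented by its brightest probe. No call changed sign. The members past the 25% limit stayed at 2 lower and 1 higher, except that *MYH8* was not past it with the brightest probe, which left 0 higher. With the brightest probe, the slow minus fast difference was 0.18 and the developmental minus fast difference -0.23. The latter was 0.27 without *MYL4*. The number of all genes past the 25% limit on the lower side was 1781 as reported, 2693 under 75th percentile scaling, 386 with normexp, 3785 with probes positive and significant and 3592 with no filter. The number higher was 1731 as reported, 1191 under 75th percentile scaling, 319 with normexp, 3121 with probes positive and significant and 3251 with no filter. Filters on dim probes and the flags moved no myosin value, since all member probes were well above background and unflagged. Member counts, medians and group differences were not computed on the authors' values, which lack *MYH1* and *MYH8*, or on probes below 16, where *MYL1*, *MYL2* and *MYL11* have none. Differences between fetuses cannot be seen in pools.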
